A study of Homo sapiens with 3 samples.

Results

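The genes described here were 35 genes of mitosis: motor proteins, kinetochore and checkpoint proteins, mitotic kinases with their cyclins, and proteins of chromosome segregation and cytokinesis. They were chosen by name, by matching gene symbols, with earlier results of these data known. They were 35 of the 61806 genes in the table. All 35 passed the filter on low counts, which 15232 genes passed. RNA had been sequenced from 3 libraries of cells labelled KG1, an established human acute myeloid leukemia line also written KG-1. One library carried the UCP2 shRNA labelled shUCP2#2, 1 carried shUCP2#3, and 1 was the control, titled NC and described in the labels as a vector control and in the study's methods as a scrambled shRNA. The series' design text numbers the hairpins 1 and 2 where the sample titles have 2 and 3, so which hairpin each shUCP2 library carried is in doubt, and the titles' numbers are used here as names of libraries. The shRNAs had been delivered by lentivirus and positive cells then selected. All groups were grown in the same RPMI medium with serum and antibiotics. The study's methods speak of pooled virus, sorted cells and selected clones, so whether each line descends from 1 cell is not given. UCP2 is a carrier protein of the inner mitochondrial membrane, and the study asked what its loss does to leukemia cells.

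At the entry into mitosis, the kinase CDK1 with its B-type cyclins drives chromosome condensation and spindle assembly. Kinetochores, protein assemblies built on the centromere histone CENPA, tie each chromosome to spindle microtubules, and the spindle checkpoint holds back anaphase until every kinetochore is attached. The genes for these proteins are mostly transcribed late in the cell cycle, in G2 and M phase, so in a culture their messages mark proliferating cells. Their promoters often carry a cell cycle homology region (CHR), bound by MuvB complexes, and CCAAT boxes, bound by NF-Y.

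The depth was 16475165 counts in shUCP2#2, 17562153 in shUCP2#3 and 18375090 in the control. A count of 0 allowed levels of up to 0.182 CPM (counts scaled to library size), 0.171 CPM and 0.163 CPM in that order, for counting error only. UCP2 itself was at 37.1 and 36.8 CPM in the shUCP2 libraries and at 35.5 CPM in the control. Its log2 fold change was 0.06 ± 0.15 (SE, adjusted p = 0.888 by edgeR). Its transcript was thus not lower in the libraries labelled UCP2 knockdown, and every direction given here is that of the labels. By immunoblot and PCR in KG-1 and THP-1 cells, the study itself reported a significant loss of UCP2 protein and transcript with shUCP2#2 and shUCP2#3. Of 18 erythroid markers, 15 were above 10 CPM in every library, and their summed level was 3568 and 3594 CPM in the shUCP2 libraries against 4665 CPM in the control. Of 15 markers of progenitors and of the labelled line, 6 were above 10 CPM throughout, with summed levels of 431 and 472 CPM in the shUCP2 libraries and 388 CPM in the control; CD38, MPO, HLA-DRA and HLA-DRB1 were at 0 everywhere, and CD34 had 10 and 0 counts in the shUCP2 libraries and 0 in the control. KG-1 is known as a CD34-positive, HLA-DR-positive progenitor-like line, so these levels go against the label, and the values describe cells labelled KG1 whose identity the data do not bear out. Fibroblast collagen transcripts stood out in 1 library: COL1A2 had 806 counts in shUCP2#2, 3 in shUCP2#3 and 2 in the control. The part of these differences in the results was not tested; the members' median log2 fold change was 0.16 in shUCP2#2 and 0.16 in shUCP2#3.

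Of the 35 mitosis genes, 12 rose and 1 fell in the shUCP2 libraries, and 22 did not pass the test (edgeR quasi-likelihood test, Benjamini-Hochberg adjusted p under 0.05). Over all tested genes, 6.25% were called higher and 6.11% lower, whereas 34.3% of the mitosis genes were called higher and 2.86% lower. Mitosis genes were abundant. Among the 5565 tested genes at or above the level of the lowest mitosis gene (31.4 CPM), 11.9% were called higher and 11.8% lower. The changes were small. Fitted log2 fold changes ran from -0.47 to 0.69 with a median of 0.15, against 0.02 over all tested genes, and no mitosis gene changed by more than 2-fold. The 12 that rose were CENPE, KIF11, KIF20A, NDC80, CENPF, TTK, BUB1B, PLK1, CDC20, ASPM, TOP2A and MKI67, and the 1 that fell was AURKB.

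These calls rest on 2 libraries against 1, with 1 residual degree of freedom. The lone control was taken to vary like the shUCP2 libraries, and no source gives separate cultures for them. P-values thus speak only of these libraries. The weight that the fit gave to the spread pooled over genes (prior degrees of freedom) had an infinite median. For most genes, SEs, intervals and p-values therefore used the spread of the abundance trend over all genes, not the gene's own spread. Without the pooling of the spread along the abundance trend, no member and no gene was called by edgeR, with 1 member and 1770 genes at an unadjusted p under 0.05; in the fit with the trend 18 members were at that level. Adjusted p-values of the 13 called genes were then between 0.425 and 0.562. By DESeq2, CENPE, KIF11, NDC80, CENPF, TTK, ASPM and TOP2A rose and AURKB was not called (adjusted p = 0.145), and limma on log2(FPKM + 1), where FPKM is the count scaled to exonic length and library size, called none of the 35, with 15 at an unadjusted p under 0.05. In bulk RNA, a change in the share of cells in mitosis and a change in these messages per cell cannot be told apart, in either direction.

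**Figure D1:**
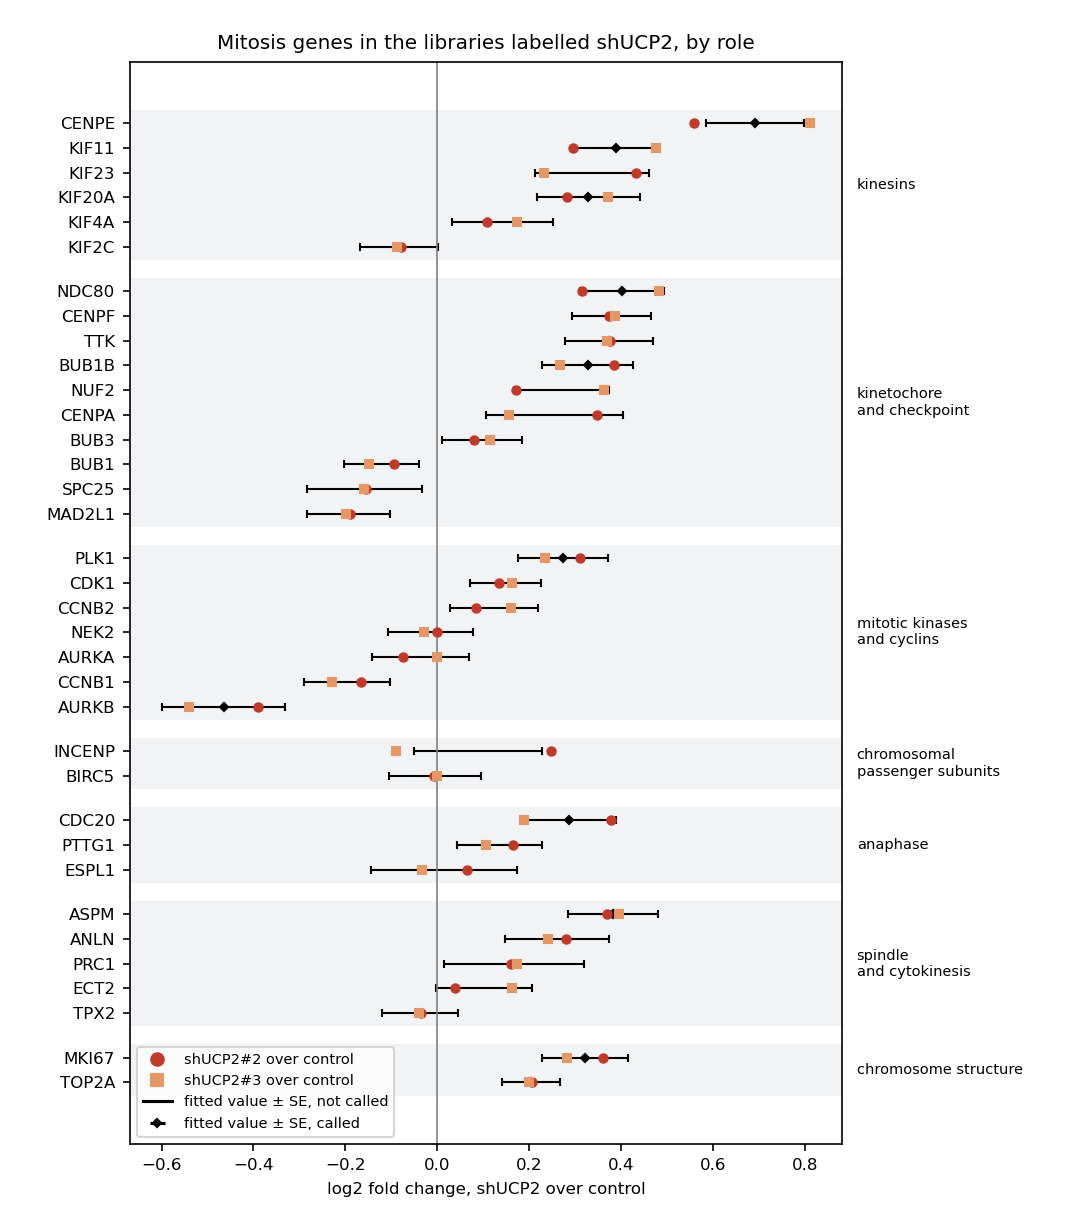
Log2 fold change of each of the 35 mitosis genes, shUCP2 over control, grouped by role. Circles and squares are the shUCP2#2 and shUCP2#3 libraries against the same control, and lines are the fitted value ± SE, with a diamond where the gene was called. CENPE lies farthest to the right at 0.69 and AURKB farthest to the left at -0.47.

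Both shUCP2 libraries were above the control for 23 mitosis genes and below it for 10, and for the other 2, ESPL1 and INCENP, the control lay between them. Any difference in sign was counted, however small. The fitted log2 fold change was at most 0.1 in size for 8 mitosis genes, and BIRC5, counted as below, stood at -0.007 and -0.0007. Over all tested genes, 38.8% were above the control in both libraries and 38.1% below it in both. Both libraries were set against the same control, so their directions are not independent of each other. Summed over the 35 genes, the level was 8087 CPM in shUCP2#2 and 8111 CPM in shUCP2#3, against 7321 CPM in the control. TOP2A made up a large share of this, and without it the sums were 6132 and 6165 CPM in the shUCP2 libraries against 5627 CPM in the control.

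Promoters were examined because the mitosis genes share a way of being transcribed that the choice by symbol did not use. RefSeq promoter windows of GRCh38.p14, 250 bases before to 50 after the gene's start, were at hand for 30 of the 35 genes, the others being BUB3, TTK, AURKA, BIRC5 and TPX2. A CHR was counted as TTTGAA or TTCGAA on either strand, and a CCAAT box as CCAAT on either strand. The promoters of 3 genes that rose are shown, each as the 150 bases before the RefSeq start, 5′ to 3′ on the gene's strand, with every CHR and CCAAT match in capitals.
KIF11 (chr10:92592980-92593129, plus strand): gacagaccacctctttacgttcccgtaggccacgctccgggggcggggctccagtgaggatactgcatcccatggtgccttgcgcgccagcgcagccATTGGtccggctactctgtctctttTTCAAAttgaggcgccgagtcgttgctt
ASPM (chr1:197146670-197146819, minus strand): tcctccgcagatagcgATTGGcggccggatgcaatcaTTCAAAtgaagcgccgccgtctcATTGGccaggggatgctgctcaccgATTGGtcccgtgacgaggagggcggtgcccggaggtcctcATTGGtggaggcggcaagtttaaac
MKI67 (chr10:128126424-128126573, minus strand): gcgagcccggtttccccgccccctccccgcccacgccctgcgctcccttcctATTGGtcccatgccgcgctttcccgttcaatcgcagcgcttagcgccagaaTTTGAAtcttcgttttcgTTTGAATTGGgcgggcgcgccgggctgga
KIF11 shows the plain arrangement, with 1 CHR that begins 28 bases before the start and 1 CCAAT box upstream of it, read here as ATTGG. ASPM has 4 CCAAT boxes and 1 CHR that begins 113 bases before the start. MKI67 has 2 of each, and its last CHR runs into a CCAAT box and shares a base with it.

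At least 1 CHR lay in the window of 23 of the 30 mitosis genes (76.7%), against 16.6% of all 27305 promoters in the RefSeq table. A CCAAT box lay in 24 (80.0%), against 35.7% of all promoters, and both motifs in 19 (63.3%), against 6.6%. Among genes that rose, 9 of the 11 with a window held a CHR and 8 a CCAAT box, and among genes that were not called 14 of 18 held a CHR and 15 a CCAAT box. AURKB, which fell, had 1 CCAAT match and no CHR match, and CENPE, with the highest fold change, had neither. A match is only a run of letters in this window.

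**Figure D2:**
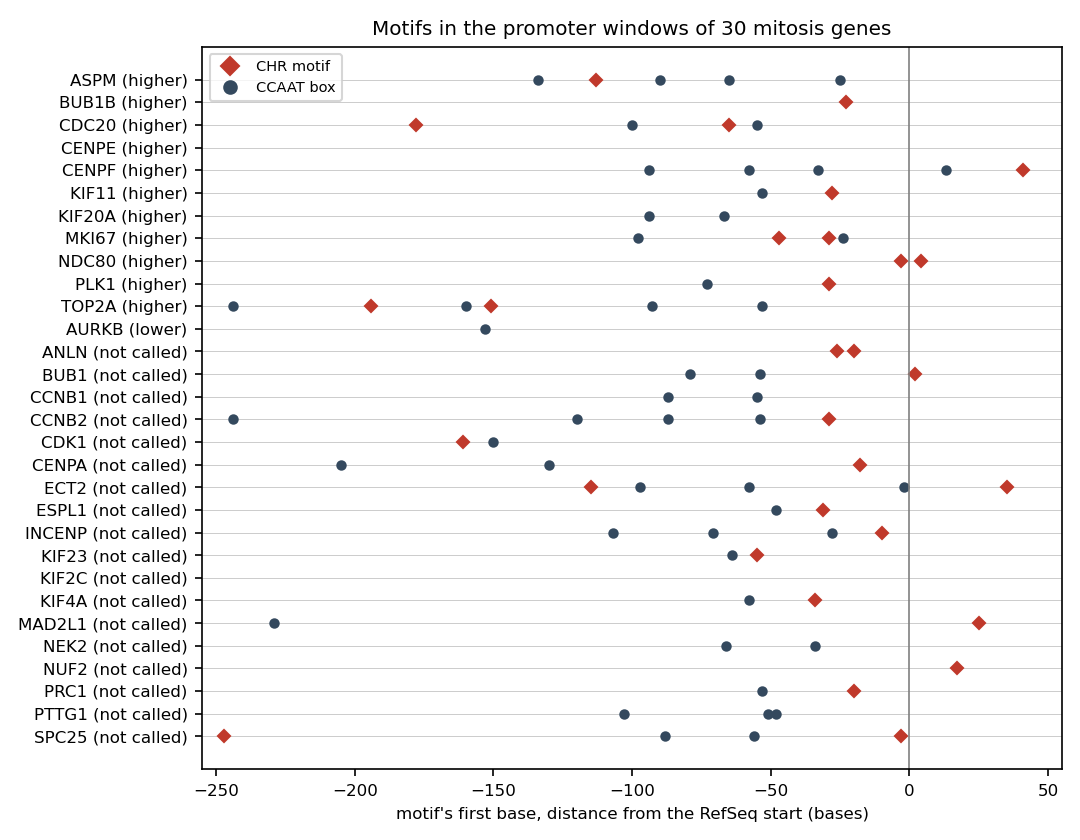
Positions of CHR (diamonds) and CCAAT (circles) matches in the promoter windows of 30 mitosis genes, in bases from the RefSeq start, with genes ordered by call. Matches are present in genes that rose and in genes that were not called, and the rows of CENPE and KIF2C are empty.

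Of the 6 kinesins, microtubule motors that move chromosomes and shape the spindle, 3 rose and none fell, and their median log2 fold change was 0.33. CENPE (ENSG00000138778, chr4:103105349-103198445 on the minus strand, GRCh38) is the kinetochore motor that carries chromosomes to the spindle equator. It had 1961 counts in shUCP2#2 and 2514 in shUCP2#3, against 1490 in the control, or 119.7 and 143 CPM against 81.2 CPM. Both shUCP2 libraries lay above the control, shUCP2#3 the farther. The log2 fold change was 0.69 ± 0.11 (SE; adjusted p = 1.2e-08), a 1.61-fold difference with a 95% interval of 1.40 to 1.87. KIF11, the motor that pushes the spindle poles apart, had 221 and 251 CPM in shUCP2#2 and shUCP2#3, against 181 CPM in the control, and again shUCP2#3 was the higher. Its log2 fold change was 0.39 ± 0.09 (SE; adjusted p = 0.0005).

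KIF20A, a motor of the central spindle needed for cytokinesis, had 96.9 and 103 CPM in the shUCP2 libraries and 79.6 CPM in the control (log2 fold change 0.33 ± 0.11, adjusted p = 0.0333). The gene overlaps BRD8 on the opposite strand, and overlapping genes had 234% of its counts, so without a stated strand setting its reads cannot be told apart from theirs. KIF23, which bundles central spindle microtubules, was 0.34 ± 0.12 (SE) above the control on the log2 scale but missed the threshold (adjusted p = 0.0539). It had 81.8 and 71.2 CPM in the shUCP2 libraries and 60.6 CPM in the control. It passed with upper-quartile scaling (adjusted p = 0.0332) and with a filter on FPKM, and its adjusted p ran from 0.0327 to 0.485 over the alternatives. KIF4A, a chromosome-arm motor, had 96.8 and 101 CPM in the shUCP2 libraries and 89.8 CPM in the control, a log2 fold change of 0.14 (adjusted p = 0.5). KIF2C, which depolymerizes microtubules at centromeres, was at 301 and 299 CPM in the shUCP2 libraries and 318 CPM in the control, and its interval ran from -0.25 to 0.08 on the log2 scale.

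Of the 10 kinetochore and checkpoint genes, 4 rose and none fell, with a median log2 fold change of 0.26. NDC80, the subunit of the outer kinetochore that grips microtubules, had 213 and 239.9 CPM in shUCP2#2 and shUCP2#3, against 172 CPM in the control. Its log2 fold change was 0.40 ± 0.09 (SE; adjusted p = 0.00035). CENPF, a large kinetochore protein of G2 and M phase, had 344 and 348 CPM in the shUCP2 libraries, against 266 CPM in the control, so that the libraries of the hairpins lay close together and apart from the control. Its log2 fold change was 0.38 ± 0.09 (SE; adjusted p = 0.00036).

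TTK, the kinase that starts the checkpoint signal and is also known as MPS1, had 185 and 184 CPM in the shUCP2 libraries and 143 CPM in the control (log2 fold change 0.37 ± 0.10, adjusted p = 0.0021). BUB1B, the checkpoint protein BUBR1 that restrains the anaphase-promoting complex, had 166 and 153 CPM in the shUCP2 libraries and 127 CPM in the control (0.33 ± 0.10, adjusted p = 0.0122). For both genes the control lay below both shUCP2 libraries, as it did for 38.8% of all tested genes. The partners of these proteins did not all move with them. NUF2, which pairs with NDC80, was at 118 and 135 CPM in the shUCP2 libraries and 105 CPM in the control (adjusted p = 0.0653), and it passed with upper-quartile scaling and with the filter on FPKM (adjusted p from 0.0375 to 0.534 over the alternatives). SPC25, of the same complex, had 63.7 and 63.5 CPM in the shUCP2 libraries and 71.0 CPM in the control, a log2 fold change of -0.16 ± 0.12 (SE; adjusted p = 0.51); genes overlapping it, with NOSTRIN first among them, had 310% of its counts.

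MAD2L1, the checkpoint protein MAD2, lay below the control, with 191 and 189 CPM in the shUCP2 libraries and 217 CPM in the control. Its log2 fold change was -0.19 ± 0.09 (SE; adjusted p = 0.163), and it was called lower when GC content and length were offset (adjusted p = 0.0152, up to 0.571 over the alternatives). BUB1, a checkpoint kinase, had 465 and 448 CPM in the shUCP2 libraries and 496 CPM in the control, a log2 fold change of -0.12 (adjusted p = 0.401). BUB3, the adaptor that brings BUB proteins to kinetochores, had 286 and 293 CPM in the shUCP2 libraries and 270.3 CPM in the control (log2 fold change 0.10, adjusted p = 0.577). MAD2L1 and BUB1 were thus below the control in both shUCP2 libraries and BUB3 above it in both. CENPA, the histone that marks the centromere, had 45.8 and 40.1 CPM in the shUCP2 libraries against 36.0 CPM in the control, with an interval of -0.04 to 0.55 on the log2 scale.

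**Figure D3:**
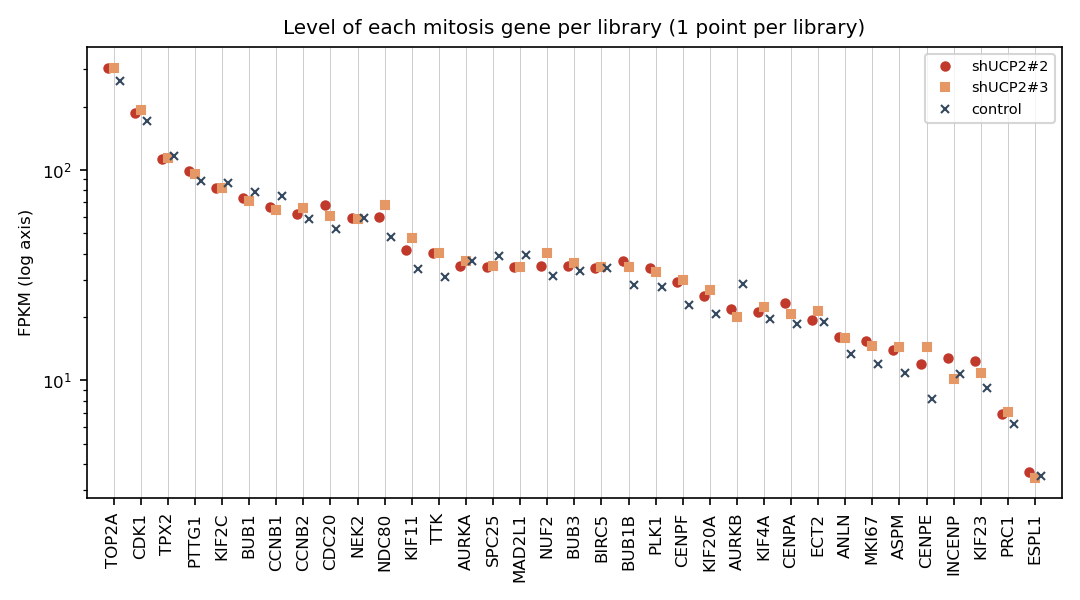
FPKM of each mitosis gene in shUCP2#2, shUCP2#3 and the control on a log axis, 1 point per library, with genes ordered by mean level. TOP2A is the highest at 305 and 307 FPKM in the shUCP2 libraries and 265 FPKM in the control, and ESPL1 the lowest at 3.65 and 3.44 FPKM in the shUCP2 libraries and 3.50 FPKM in the control.

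The mitotic kinases and cyclins were divided: of 7 genes, 1 rose and 1 fell, and the median log2 fold change was -0.01. AURKB (ENSG00000178999, chr17:8204733-8210600 on the minus strand) is the kinase of the chromosomal passenger complex that corrects wrong attachments. It had 808 and 783 counts in the shUCP2 libraries, against 1186 in the control, or 49.3 and 44.4 CPM against 64.7 CPM. Both shUCP2 libraries lay below the control. The log2 fold change was -0.47 ± 0.13 (SE; adjusted p = 0.0077), a 0.724-fold level with a 95% interval of 0.604 to 0.869. PLK1, a kinase of centrosome maturation and mitotic entry, rose slightly, with 164 and 156 CPM in the shUCP2 libraries and 132 CPM in the control (0.27 ± 0.10, adjusted p = 0.0457). That call was lost with library totals alone (adjusted p = 0.055) and with no filter (adjusted p = 0.0661), and the adjusted p ran from 0.00114 to 0.494 over the alternatives.

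CDK1, the kinase that drives entry into mitosis, was among the most abundant mitosis genes per length, at 186 and 192 FPKM in the shUCP2 libraries and 171 FPKM in the control, and its log2 fold change of 0.15 ± 0.08 (SE) did not pass (adjusted p = 0.227). Its cyclins lay on opposite sides of the control. CCNB1, cyclin B1, had 164 and 157 CPM in the shUCP2 libraries against 184 CPM in the control (log2 fold change -0.20, adjusted p = 0.177), and CCNB2, cyclin B2, had 171 and 180.2 CPM in the shUCP2 libraries against 161 CPM in the control (0.12, adjusted p = 0.492). AURKA, the Aurora kinase of spindle poles, had 102 and 108 CPM in the shUCP2 libraries and 108 CPM in the control, with an interval of -0.24 to 0.17 on the log2 scale. NEK2, a kinase that separates centrosomes, had 184 and 180.0 CPM in the shUCP2 libraries and 184 CPM in the control, with an interval of -0.20 to 0.17.

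The partners of AURKB in the chromosomal passenger complex did not pass the test. BIRC5, or survivin, had 131 and 131 CPM in the shUCP2 libraries and 131 CPM in the control, with an interval of -0.20 to 0.19 on the log2 scale. INCENP, the scaffold of the complex, was at 57.0 CPM in shUCP2#2, above the control, and at 45.1 CPM in shUCP2#3, below it, with 48.0 CPM in the control.

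Of 3 genes that trigger or restrain anaphase, CDC20 rose. This activator of the anaphase-promoting complex had 137 and 120.5 CPM in the shUCP2 libraries, against 106 CPM in the control (0.29 ± 0.10, adjusted p = 0.0465), and the call was lost with library totals alone and with no filter (adjusted p from 0.000691 to 0.519 over the alternatives). PTTG1, or securin, which holds separase inactive, had 196 and 189 CPM in the shUCP2 libraries and 175 CPM in the control, a log2 fold change of 0.13 (adjusted p = 0.419). ESPL1, separase itself, which cuts cohesin, was at 32.6 CPM in shUCP2#2 and 30.4 CPM in shUCP2#3, with 31.2 CPM in the control between them.

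Of 5 genes of spindle organization and cytokinesis, ASPM rose. It encodes a protein of spindle poles and had 168 and 171 CPM in the shUCP2 libraries, against 130.1 CPM in the control, a log2 fold change of 0.38 ± 0.10 (SE; adjusted p = 0.002). With GC content and length offset this call was lost (0.23, adjusted p = 0.0741; 0.000747 to 0.437 over the alternatives). ANLN, the cleavage-furrow protein anillin, had 97.2 and 94.5 CPM in the shUCP2 libraries and 80.0 CPM in the control (0.26, adjusted p = 0.124). PRC1, which bundles microtubules of the central spindle, had 38.4 and 38.8 CPM in the shUCP2 libraries and 34.4 CPM in the control (0.17, adjusted p = 0.589). For both, the shUCP2 libraries lay above the control without passing the test. ECT2, which activates RhoA at the furrow, had 107 and 117 CPM in the shUCP2 libraries and 104 CPM in the control (0.10, adjusted p = 0.651). TPX2, a spindle assembly factor that activates AURKA, was at 408 and 407 CPM in the shUCP2 libraries and 418 CPM in the control, an interval of -0.20 to 0.12.

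Both genes of mitotic chromosome structure rose. TOP2A, the topoisomerase that untangles sister chromatids, had 1954 and 1946 CPM in the shUCP2 libraries, against 1694 CPM in the control, a log2 fold change of 0.20 ± 0.06 (SE; adjusted p = 0.0162). MKI67, the proliferation marker Ki-67 that coats mitotic chromosomes, had 197 and 187 CPM in the shUCP2 libraries, against 154 CPM in the control (0.32 ± 0.09, adjusted p = 0.0096). With GC content and length offset, neither was called (adjusted p = 0.098 for TOP2A and 0.0531 for MKI67). Over the alternatives the adjusted p ran from 0.00642 to 0.562 for TOP2A and from 0.00416 to 0.462 for MKI67.

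Other genes of mitosis, taken from lists of kinetochore subunits, kinesins, kinases, spindle proteins and others, gave these counts: of 134 tested, 19 rose and 9 fell (14.2% and 6.72%), with a median log2 fold change of 0.05. Over all tested genes the shares were 6.25% and 6.11%, and over those at 31.4 CPM or more 11.9% and 11.8%. Whether the share of these lists differs from that of the 35 genes was not tested. Among 30 other kinetochore subunits 3 rose and 2 fell. KNL1, the scaffold to which BUB proteins bind, had 2145 and 2620 counts in the shUCP2 libraries and 1939 in the control (0.40 ± 0.10, adjusted p = 0.00181). PMF1, a subunit of the MIS12 complex, had 138 and 165 counts in the shUCP2 libraries and 319 in the control (-0.97 ± 0.25, adjusted p = 0.00206). TRIP13, which remodels MAD2, also fell, with 898 and 816 counts in the shUCP2 libraries and 1352 in the control (-0.55 ± 0.13, adjusted p = 0.000641).

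Of 8 other mitotic kinesins 3 rose, among them KIF14 (0.42) and KIF2A (0.37), and KIF15, a motor that can stand in for KIF11, fell (-0.32 ± 0.12, adjusted p = 0.0432). Of 17 tested genes of the anaphase-promoting complex, the ubiquitin ligase that CDC20 activates, ANAPC16 rose (0.49) and 3 fell, among them ANAPC4 (-0.59) and ANAPC5 (-0.51). WEE1, the kinase that holds CDK1 inactive, rose by 0.48 ± 0.10 on the log2 scale (adjusted p = 1.8e-05), and CDC25C, the phosphatase that releases CDK1, rose by 0.40 ± 0.14 (adjusted p = 0.038). They were the 2 genes called among 14 other mitotic kinases, cyclins and phosphatases. Of 28 other spindle and cytokinesis genes 6 rose and none fell, among them CKAP2L (0.65) and the augmin subunits HAUS6 (0.52) and HAUS2 (0.43), which nucleate microtubules within the spindle.

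Among 19 condensin and cohesin genes, 3 rose and 2 fell: STAG2, a cohesin subunit (0.41), and SMC2, the condensin ATPase (0.30), were of the higher ones, and NCAPH2, of condensin II, of the lower ones (-0.51). In the list of 14 transcription factors that act on mitotic promoters, NFYB, a subunit of the CCAAT-binding factor, rose (0.51 ± 0.14, adjusted p = 0.00303) and E2F4, a subunit of the DREAM repressor, fell (-0.44 ± 0.13, adjusted p = 0.0113). None of the 4 genes of centromere histone loading was called by edgeR, and 2 were at an unadjusted p under 0.05.

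Of 22 genes of the G1/S transition and S phase, 1 rose and 7 fell (4.55% and 31.8%), with a median log2 fold change of -0.20, and 16 were below the control in both shUCP2 libraries. Their fitted log2 fold changes ran from -0.422 to 0.705. Their summed level was 3477 and 3448 CPM in the shUCP2 libraries, against 3933 CPM in the control. CDC45, a part of the replicative helicase (-0.41 ± 0.09, adjusted p = 0.000365), TYMS, thymidylate synthase (-0.35 ± 0.10, adjusted p = 0.00562), and UHRF1, which maintains DNA methylation at replication (-0.42 ± 0.14, adjusted p = 0.0266), were among those that fell. The 1 gene of this list that rose is not named here. The difference between this list and the mitosis genes was not itself tested. Of 9 alpha and beta tubulins, the subunits of microtubules, none rose and 2 fell, TUBB4B (-0.43) and TUBB (-0.19).

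**Figure D4:**
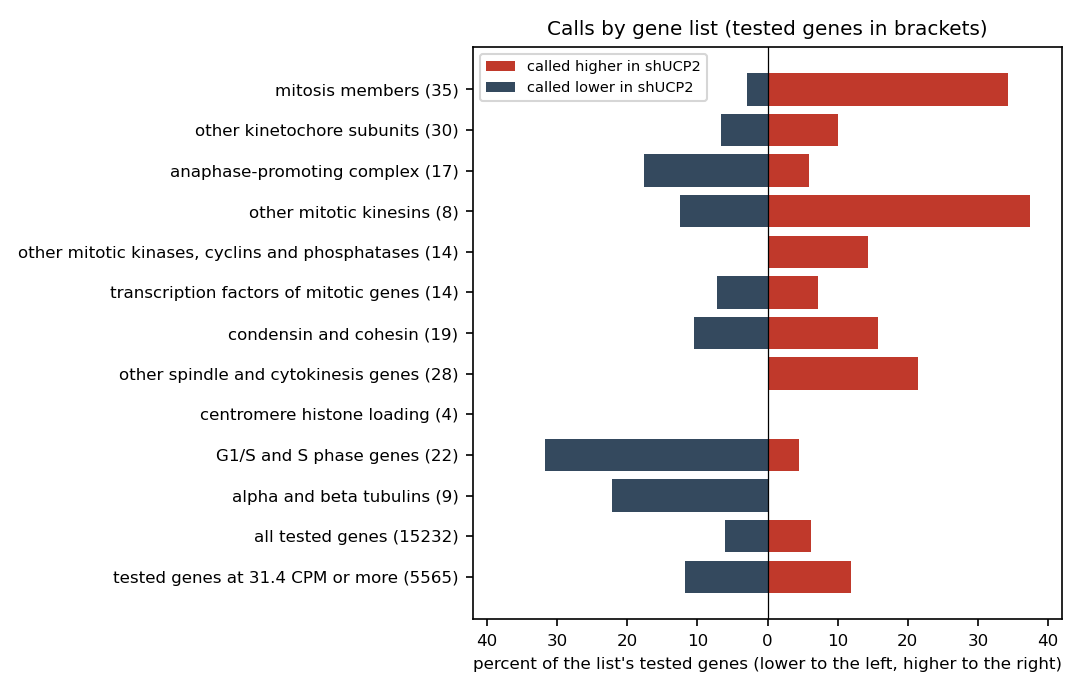
Percent of each list's tested genes that edgeR called higher (to the right) or lower (to the left) in the shUCP2 libraries than in the control, with the number tested in brackets. The mitosis genes stand at 34.3% higher and 2.86% lower, the G1/S and S phase genes at 4.55% higher and 31.8% lower, and all tested genes at 6.25% and 6.11%.

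The 2 hairpins were also compared with each other. Between shUCP2#3 and shUCP2#2, 14 of the 35 mitosis genes differed by more than counting error allowed, 6 of them higher and 8 lower in shUCP2#3, against 43.2% of the tested genes at 31.4 CPM or more. On the log2 scale, shUCP2#3 minus shUCP2#2, CENPE stood at 0.25, NUF2 at 0.19, KIF11 at 0.18 and NDC80 at 0.17. CCNB2 (0.08) and ECT2 (0.12) were the others higher in shUCP2#3. On the other side, INCENP stood at -0.34, KIF23 at -0.20, CENPA at -0.19 and CDC20 at -0.19, followed by AURKB at -0.15, BUB1B at -0.12, MKI67 at -0.08 and BUB1 at -0.05. With 1 library per hairpin, these differences compare libraries and not hairpins.

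The differences moved with base composition. Across the 35 genes, the difference shUCP2#3 minus shUCP2#2 and the GC content of the longest transcript had Pearson's r of -0.63 and Spearman's rho of -0.58. Over 5557 tested genes at 31.4 CPM or more, r was -0.29 and rho -0.31, and over all tested genes with a known GC content r was -0.045 and rho -0.135. For the fitted log2 fold change of shUCP2 over control, r with GC content was -0.31 across the 35 genes, -0.26 over the abundant genes and -0.12 over all. With exonic length, r was 0.44 across the 35 genes, 0.19 over the abundant genes and 0.004 over all tested genes. All points come from the same 3 libraries, and genes are not independent replicates. The 12 genes that rose had a median GC content of 40.8% and a median length of 5041 bases, those not called 43.8% and 3862 bases, and AURKB 55.6% and 2241 bases.

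The same comparison was made within bands of GC content. For transcripts under 40% GC, the median log2 fold change was 0.24 for 8 mitosis genes, of which 4 rose, and 0.11 for all tested genes of that band, of which 10.9% were called higher and 3.51% lower. Between 40% and 45% GC, it was 0.19 for 12 mitosis genes, of which 4 rose, and 0.07 for all genes (8.54% higher, 4.5% lower). Between 45% and 50% GC, it was 0.15 for 8 mitosis genes, of which 2 rose, and 0.04 for all genes (6.66% higher, 5.97% lower). The 2 mitosis genes between 50% and 55% GC were not called, and their median of -0.04 lay beside -0.03 for all genes (5.02% higher, 7.18% lower). Over 55% GC, it was 0.09 for 5 mitosis genes, of which 2 rose and AURKB fell, and -0.13 for all genes (2.5% higher, 8.92% lower). No test was made within bands. The band shares are over tested genes of every level, whereas all 35 mitosis genes lay at 31.4 CPM or more. At that level, over all bands, 11.9% of tested genes were called higher and 11.8% lower. When GC content and length were offset in the fit, 9 mitosis genes rose and 2 fell. Among all 15232 tested genes, 773 were then called higher and 992 lower.

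**Figure D5:**
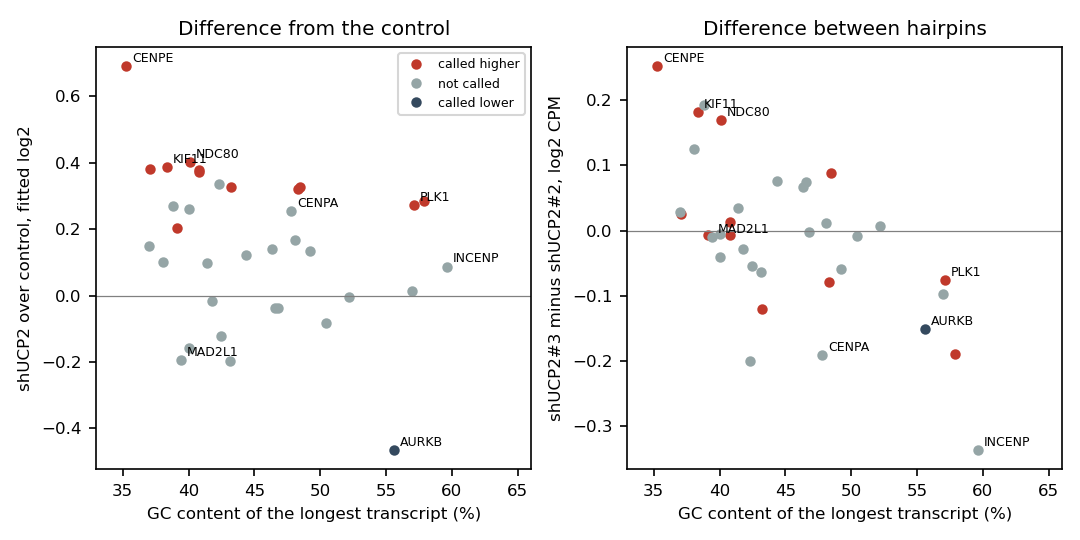
GC content of the longest transcript (percent) of the 35 mitosis genes against the fitted log2 fold change of shUCP2 over control (left) and against the log2 difference shUCP2#3 minus shUCP2#2 (right), with points coloured by call. CENPE, at 35.3% GC, lies highest in both panels, at 0.69 and 0.25, and INCENP, at 59.6% GC, lies lowest in the right panel at -0.34.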

How the data were processed

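The libraries held total RNA, although the extraction protocol in the labels describes DNA, and they were taken to be RNA libraries. One table was deposited, in which the authors gave raw counts per gene and library, not normalized, and FPKM, which the authors computed from the same counts, exonic length and library total. According to the submitters' notes, the build was GRCh38 and the tools included HTSeq 0.6.1, HISAT2 2.2.1, Cufflinks 2.2.1, cutadapt 1.9.1, DESeq2 and SAMtools 0.1.19. The strand setting is not given in the sources used here: 19 of the 35 genes overlap another gene, 14 of them on the opposite strand, and in 5 (KIF20A, SPC25, CENPA, KIF4A, PRC1) overlapping genes had over 10% of the gene's own counts. Pseudogene copies named after 9 genes had at most 0.76% of the gene's counts.

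Groups came from the sample labels. The genes, lists and tests were chosen with earlier results of these data known. Named were all 35 genes and, from each further list, up to 3 called genes by size of change. Promoters shown are those of the 3 genes with the smallest p among those called higher that had a whole CHR before the start; no called-lower gene had one. Counts were tested across all genes with edgeR 4.0.16 under R 4.3.3 (TMM, filterByExpr, quasi-likelihood F test, two-sided, Benjamini-Hochberg adjustment), shUCP2 over control. The F statistic and the fold change gave the SE. CPM of tested genes use TMM-scaled totals of tested genes. The marker sums, and the highest levels allowed for genes without counts, use library totals of all genes without TMM scaling. Per-library fold changes used log CPM with a prior count of 2. GC content was that of the longest GENCODE 29 transcript, known for 97.7% of tested genes. Alternatives were other scalings and filters, no abundance trend, DESeq2 1.42.0, limma 3.58.1 on log2(FPKM + 1) with further pseudocounts, an offset for GC content and length (mgcv 1.9.3), and leaving out each shUCP2 library. The steps were tested on simulated data, drawn with the fitted abundance trend of the spread for all 3 libraries alike. The simulation therefore could not test that trend, or whether the lone control varies like the shUCP2 libraries.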

Additional observations from a re-analysis of the deposited data

How the results depend on the processing

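The calls depended on how the spread was estimated. Without the abundance trend, edgeR called 0 mitosis genes higher and 0 lower (1 at an unadjusted p under 0.05) and 0 genes in all in either direction (1770 unadjusted). DESeq2 called 7 mitosis genes higher and 0 lower (13 unadjusted, 12 of them higher), and 323 and 293 of all genes. It was run on 25001 genes, of which 16965 had no adjusted p and could not be called. Limma on log2(FPKM + 1) called 0 and 0 (15 unadjusted, 13 of them higher), and 1 and 1 of the 10937 genes it was run on. With GC content and length offset, 9 mitosis genes rose and 2 fell, beside 773 and 992 of all 15232 tested genes. MAD2L1 was gained, and ASPM, TOP2A and MKI67 were lost. Of 9 alternatives with a test, CENPE, KIF11, CENPF, TTK and NDC80 were called in 7, KIF20A, BUB1B, AURKB and ASPM in 6, TOP2A and MKI67 in 5, and PLK1 and CDC20 in 4. The median log2 fold change of the 35 genes lay between 0.13 and 0.17 under every alternative run, and was 0.16 without either shUCP2 library. Leaving out a library leaves 1 against 1, a value with no test, and the control could not be left out. No paired analysis was possible because there was only 1 control library.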
